A study of Homo sapiens with 4 samples.

Results

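Early gene body peaks are the peaks of RNA polymerase II (Pol II) that lay a short way inside a protein-coding gene, past its annotated start. The label is a position and not a stage of transcription, since many of them lay at the start of another transcript. They were chosen by position alone, as peaks on chromosomes 1 to 22 and X with a midpoint over 1 kb and up to 5 kb downstream of the transcription start site (TSS) and inside a protein-coding gene, and with no protein-coding TSS within 1 kb of the midpoint. The TSS was the start of the gene span in GENCODE release 44 on GRCh38. By this rule 203 of the 4014 peaks in control cells and 1172 of the 14363 peaks in RRN3-silenced cells were early peaks, which made 1375 of 18377 peaks in all.

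The peaks came from chromatin immunoprecipitation with sequencing (ChIP-seq) in SK-OV-3, an established human ovarian cancer cell line. Cells expressed a short hairpin RNA against RRN3 (shRRN3), an initiation factor of RNA polymerase I, or a hairpin against the bacterial gene LacZ (shLacZ) as the control. Per the methods, a lentiviral vector was used to make stable RRN3-silenced cells, and the label shRRN3 does not say which of the study's RRN3 hairpins was used. Each hairpin had 1 Pol II library, represented by 1 peak list, while the 2 libraries of input DNA were not used.

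With 1 library per hairpin, there was no replicate spread against which to judge a difference between shLacZ and shRRN3, and no p-value is given. The intervals are 95% intervals that cover counting error only, treat peaks or genes as independent although neighbours are not, and compare these libraries and not the conditions. The lists hold no read counts, and the depth behind each peak is unknown. The shRRN3 list was 3.66 times as long as the shLacZ list (exact interval 3.53 to 3.79) on the chromosomes used. Because of that, each main value was also computed from a reduced shRRN3 list, the 3916 peaks with the highest scores, to match the length of the shLacZ list. Of 8 carcinoma markers, only PAX8 had a peak at its TSS in shLacZ and KRT8, KRT18, EPCAM and PAX8 had one in shRRN3. The rest of the 8 had none in either list, and 0 of 6 blood cell markers had one in either list. A peak at a start is a weak check of the cell type.

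Pol II that has initiated usually pauses a short way past the start until the elongation factor P-TEFb releases it into the gene body. Its density tends to be highest at the promoter and to fall as the polymerase accelerates through the first introns. Many genes also have further promoters inside their annotated span, and introns near the start often hold enhancers at which Pol II is recruited as well. A peak a few kb past a TSS can therefore be any of these, and a peak list does not tell the direction of transcription.

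Short stretches of the peaks show what kinds of sequence fell under the rule. The first set comes from early peaks that lay at no annotated transcript start and no gene end. It gives 3 peaks in each list, the highest-scoring of those that could be shown in an exon-free stretch outside 1 chromosome that was left out, with the word TGACTCA on either strand near the midpoint. TGACTCA is the binding word of AP-1, the dimers of JUN and FOS family proteins that often occupy enhancers. Each is a 120-base stretch free of annotated exons, read from hg38 on the strand of the gene and written 5′ to 3′, with the word or its complement in capitals. PPM1D, a protein phosphatase of the DNA damage response, F3, the tissue factor that starts blood clotting, and AXL, a receptor tyrosine kinase, had these peaks in shLacZ. VIM, the intermediate filament vimentin, TMEM219, a membrane protein, and ATL3, an atlastin of the endoplasmic reticulum, had them in shRRN3. Only the peaks of VIM and ATL3 had no overlapping peak in the other list.
PPM1D (chr17:60602053-60602172, plus strand): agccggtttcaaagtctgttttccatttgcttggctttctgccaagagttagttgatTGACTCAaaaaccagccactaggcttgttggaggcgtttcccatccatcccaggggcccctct
F3 (chr1:94539680-94539799, minus strand): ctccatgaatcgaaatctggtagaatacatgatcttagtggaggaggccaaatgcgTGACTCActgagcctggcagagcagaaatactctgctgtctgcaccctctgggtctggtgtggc
AXL (chr19:41223669-41223788, plus strand): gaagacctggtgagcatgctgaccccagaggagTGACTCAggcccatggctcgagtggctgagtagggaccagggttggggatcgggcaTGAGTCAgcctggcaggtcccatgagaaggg
VIM (chr10:17232501-17232620, plus strand): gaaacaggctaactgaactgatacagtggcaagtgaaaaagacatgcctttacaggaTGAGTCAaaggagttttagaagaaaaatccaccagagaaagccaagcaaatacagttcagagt
TMEM219 (chr16:29944114-29944233, plus strand): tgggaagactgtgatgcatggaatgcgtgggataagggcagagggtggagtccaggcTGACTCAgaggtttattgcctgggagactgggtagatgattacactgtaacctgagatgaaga
ATL3 (chr11:63668067-63668186, minus strand): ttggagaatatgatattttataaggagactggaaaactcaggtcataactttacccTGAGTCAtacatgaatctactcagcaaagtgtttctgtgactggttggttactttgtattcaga

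The second set comes from early peaks that lay within 1 kb of the start of the gene's canonical transcript, where the annotated gene span begins further upstream. GGGCGG, the GC box bound by Sp1 family factors, is in capitals on either strand. PTMA encodes prothymosin alpha and ALDOA the glycolytic enzyme aldolase A, and both were shLacZ peaks. DDX3X, an RNA helicase, and TOB1, an antiproliferative protein that recruits deadenylases, were shRRN3 peaks. The 4 stretches come from high-scoring peaks under the same limits.
PTMA (chr2:231708396-231708515, plus strand): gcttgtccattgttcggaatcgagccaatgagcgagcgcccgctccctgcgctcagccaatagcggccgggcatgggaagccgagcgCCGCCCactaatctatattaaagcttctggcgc
ALDOA (chr16:30065602-30065721, plus strand): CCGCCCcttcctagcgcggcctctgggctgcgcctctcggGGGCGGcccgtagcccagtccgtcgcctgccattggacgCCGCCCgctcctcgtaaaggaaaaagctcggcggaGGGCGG
DDX3X (chrX:41334463-41334582, plus strand): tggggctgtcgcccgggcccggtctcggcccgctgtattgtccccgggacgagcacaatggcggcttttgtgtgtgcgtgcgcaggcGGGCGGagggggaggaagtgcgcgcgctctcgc
TOB1 (chr17:50866396-50866515, minus strand): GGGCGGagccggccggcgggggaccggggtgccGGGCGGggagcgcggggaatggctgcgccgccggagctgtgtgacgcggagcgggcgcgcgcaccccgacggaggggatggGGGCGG

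Both sets were chosen for their word, and how common each word was in its class was counted next. In the 300 bp around the midpoint, the median GC content of early peaks at the canonical start was 66.0% in shLacZ and 61.2% in shRRN3, close to the 65.0% and 64.0% of peaks at TSSs. A GC box was found in 70.7% (exact interval 59.0% to 80.6%) and 56.9% (50.7% to 63.0%) of them, against 9.76% of the 139039 windows of 300 bp tiled over all sequence where a midpoint could qualify and 45.0% of the 34961 RefSeq promoters of the same length (GRCh38). Early peaks at no start and no gene end had a median GC content of 42.3% and 40.0%, and a GC box in 10.7% and 8.49%, about the share of the tiled windows. TGACTCA was found in 13.1% (6.72% to 22.2%) of these in shLacZ and in 14.7% (12.1% to 17.5%) in shRRN3, against 4.50% of the tiled windows and 4.92% of promoters. The excess over the tiled windows was 8.59 points (Newcombe interval 2.97 to 17.4) in shLacZ and 10.2 points (7.73 to 13.0) in shRRN3. Peaks deeper in genes held the word more often still in shRRN3, in 28.7%, an early minus deep difference of −14.0 points (−16.7 to −10.9). In shLacZ deeper peaks held it in 20.1%, and the difference of −6.96 points was within counting error (−13.1 to 2.17). A match of letters is a description and no evidence of binding.

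The first question was whether early peaks lay at genes that also had a peak at the TSS itself, meaning a peak midpoint within 1 kb of it. Early peaks were found at 179 of 19475 qualifying genes in shLacZ, or 0.919%, and at 959 in shRRN3, or 4.92%. In both lists they were several times more common at genes with a TSS peak. In shLacZ, 54 of 1479 genes with a TSS peak had one, or 3.65% (exact interval 2.75% to 4.74%), against 125 of 17996 genes without, or 0.695% (0.578% to 0.827%). In shRRN3 it was 544 of 4687 genes, or 11.6% (10.7% to 12.6%), against 415 of 14788, or 2.81% (2.55% to 3.09%). The differences were 2.96 points (Newcombe interval 2.10 to 4.04) and 8.80 points (7.87 to 9.78), so both exceeded counting error. The shRRN3 difference was 4.02 points (3.12 to 5.10) with the reduced list, and the shLacZ difference was 1.48 points when only scores from the shLacZ median up were kept.

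**Figure D1:**
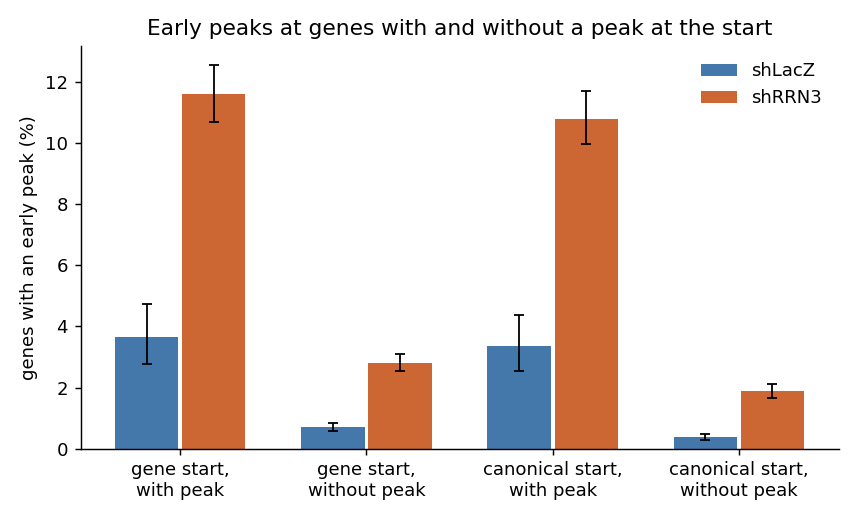
Percentage of qualifying protein-coding genes with an early peak, for genes with and without a peak midpoint within 1 kb of the start, in each list. The left pairs of bars use the start of the gene span and the right pairs the start of the canonical transcript, error bars are exact 95% intervals over genes of 1 library, and the bars for genes with a start peak (3.65% and 11.6% on the left) stand above those without (0.695% and 2.81%).

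Genes differ in how much sequence could hold an early peak, so rates per Mb were compared as well. Genes with a TSS peak had 13.4 early peaks per Mb of qualifying sequence in shLacZ and genes without had 1.95, a ratio of 6.88 (exact conditional interval 5.10 to 9.23). In shRRN3 the rates were 39.2 and 8.97, a ratio of 4.37 (3.88 to 4.92). The rule keeps midpoints of early peaks over 1 kb from a TSS and so sets part of their distance from the TSS peak. The median gap between an early peak and the nearest TSS peak of its gene was 1462 bp under shLacZ and 1234 bp under shRRN3, with 9.46% and 8.25% of gaps at 200 bp or less and 35.1% and 39.9% at 1000 bp or less.

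Many early peaks at genes without a TSS peak lay near the start of the gene's canonical transcript. A GENCODE gene span begins at its most upstream transcript, which need not be the main one, and 50.4% of the early peaks at genes without a TSS peak in shLacZ lay within 1 kb of the start of the gene's canonical transcript. In shRRN3 this share was 36.2%. Among early peaks at genes with a TSS peak it was 13.5% and 12.4%, which was lower by differences of −36.9 points (−47.3 to −24.0) and −23.7 points (−28.7 to −18.8). EEF1A1, the translation elongation factor that brings tRNA to the ribosome, is an example. Its peaks of score 601.5 in shLacZ (chr6:73520042-73521797) and 863.8 in shRRN3 (chr6:73520024-73522338) lay 4668 and 4406 bp past the start of the gene span but 113 and 149 bp from the canonical start. The peaks of TOB1 (70 and 115 bp from the canonical start) and of HSPA8, the constitutive heat shock 70 chaperone (26 bp in shLacZ and 197 bp in shRRN3), were alike. The 1 kb limit also counts peaks of genes whose gene start and canonical start lie close together. A shRRN3 peak of RCC1, of score 878.7, lay 960 bp from the canonical start and 1060 bp past the gene start.

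The contrast was therefore repeated with canonical starts in place of gene starts, a choice made after the values were seen. In shLacZ, 3.37% of 1604 genes with a peak at the canonical start had an early peak past it and 0.370% of 17853 genes without. In shRRN3 it was 10.8% of 5024 and 1.88% of 14433. Early peaks that lay at no start and no gene end gave the same order, with 2.23% against 0.239% of genes in shLacZ, a difference of 1.99 points (1.35 to 2.88), and 8.24% against 1.45% in shRRN3, a difference of 6.79 points (6.01 to 7.63).

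The TSS peaks of both lists were then used together, since a gene can have a TSS peak in 1 list only. Of the 1249 genes with a TSS peak in both lists, 3.84% (2.85% to 5.06%) had an early peak in shLacZ and 18.5% (16.4% to 20.8%) in shRRN3. Of the 3438 genes with a TSS peak in shRRN3 alone, 1.28% and 9.10% had one. At the 230 genes with a TSS peak in shLacZ alone the shares were 2.61% (0.963% to 5.59%) and 12.6% (8.61% to 17.6%), and at the 14558 genes with a TSS peak in neither list they were 0.556% and 2.65%. In the reduced shRRN3 list the share at genes with a TSS peak in both lists was 6.25% (4.97% to 7.73%).

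Early peaks were scarcer between 4 and 5 kb past the TSS than between 1 and 1.5 kb. At genes with a TSS peak in shRRN3 they fell from 80.2 per Mb (68.5 to 93.2) between 1 and 1.5 kb to 22.6 per Mb (18.4 to 27.6) between 4 and 5 kb. At genes without a TSS peak they fell from 19.1 (16.0 to 22.7) to 6.87 (5.52 to 8.46), with rates of 7.18, 7.09 and 6.87 in the last 3 bins. In shLacZ the rates went from 30.0 (18.3 to 46.3) to 9.68 (5.15 to 16.6) with a TSS peak and from 4.88 (3.50 to 6.62) to 1.38 (0.865 to 2.09) without. With a TSS peak the bins between held 17.1, 8.49 and 12.3, so that fall was not steady. Peaks within 1 kb of the canonical start made up 55.7% of shLacZ early peaks between 1 and 1.5 kb and 23.5% between 4 and 5 kb. In shRRN3 these shares were 36.8% and 14.2%. Genes with a TSS peak had the higher rate in each of the 5 bins of both lists.

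**Figure D2:**
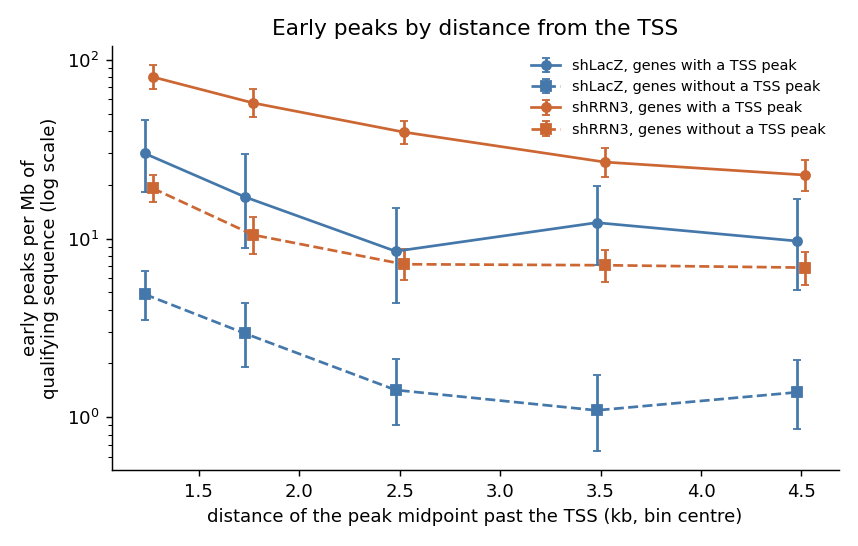
Early peaks per Mb of qualifying sequence (log scale) against the distance of the peak midpoint past the TSS in kb, for genes with (solid) and without (dashed) a TSS peak in shLacZ and shRRN3. Points stand at bin centres with exact Poisson intervals, and in shRRN3 the solid line falls from 80.2 to 22.6 per Mb while the dashed line falls from 19.1 to 6.87.

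Genes with a stronger TSS peak had early peaks more often. When genes with a TSS peak were ranked by its score in shRRN3 and split into quintiles, 8.004%, 7.68%, 8.96%, 12.3% and 21.1% had an early peak, from the lowest quintile to the highest. The highest quintile exceeded the lowest by 13.1 points (9.96 to 16.3). In shLacZ the shares were 3.05%, 3.04%, 2.36%, 1.69% and 8.11%, and the highest exceeded the lowest by 5.06 points (1.35 to 9.001). In that list the rise was confined to the highest quintile, where TSS peaks scored from 103.1 to 823.7.

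**Figure D3:**
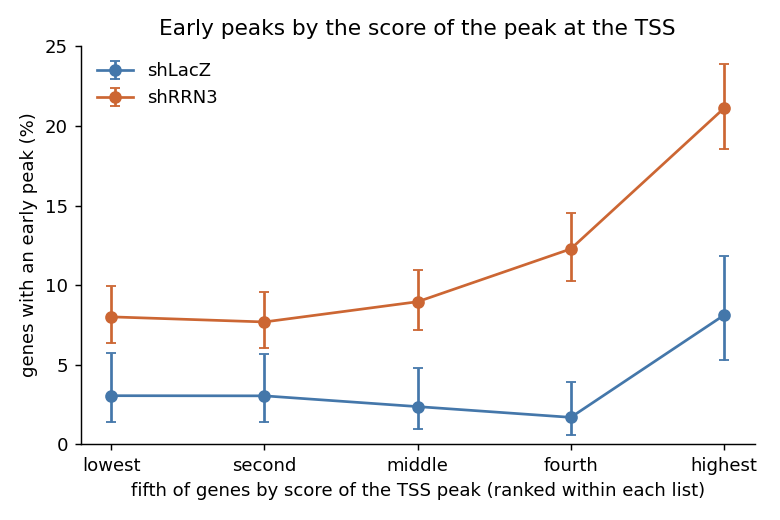
Percentage of genes with an early peak against the quintile of genes ranked by the score of the TSS peak within each list, with exact 95% intervals over genes. The shRRN3 line climbs from 8.004% to 21.1% and the shLacZ line stays between 1.69% and 3.05% until the highest quintile, at 8.11%.

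The hairpins were compared next. Early peaks made up 5.18% (4.51% to 5.93%) of shLacZ peaks and 8.18% (7.74% to 8.64%) of shRRN3 peaks, a difference of 3.00 points (2.14 to 3.80). With the reduced shRRN3 list the share was 7.38% (6.58% to 8.24%). There were 5.77 times as many early peaks in shRRN3 (4.97 to 6.73), against 3.30 times as many TSS peaks (3.10 to 3.51) and 4.27 times as many peaks deeper in genes (4.004 to 4.56). At genes with a TSS peak the number was 9.34 times as large (7.34 to 12.03) and at genes without 3.73 times (3.06 to 4.56). Of all early peaks, 36.5% in shLacZ and 59.0% in shRRN3 were at genes with a TSS peak, a difference of 22.5 points (15.1 to 29.4). The shRRN3 list also had a TSS peak at more of the 19475 qualifying genes, 4687 against 1479 in shLacZ. The ratio of early peaks per Mb at genes with over without a TSS peak was lower in shRRN3, 4.37 (3.88 to 4.92) against 6.88 (5.10 to 9.23). In the reduced list, whose TSS peaks were also fewer, the difference in the share of early peaks was 2.99 points and within counting error (−5.74 to 11.5). With the TSS peaks of the full shRRN3 list kept, 56.7% of the early peaks of the reduced list were at such genes, a difference of 20.3 points to shLacZ (11.4 to 28.7).

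Each early peak was put into 1 of 4 classes, defined after the values were seen. In order, these were peaks within 1 kb of the canonical start of the gene, peaks within 250 bp of any other annotated transcript start, peaks within 1 kb of the end of the gene or of its canonical transcript, or past the latter, and peaks at none of these. The canonical start class held 75 shLacZ peaks (36.9%) and 260 shRRN3 peaks (22.2%), a difference of −14.8 points (−21.96 to −7.96). Another transcript start held 35 (17.2%) and 157 (13.4%), a difference within counting error (−9.92 to 1.18). Gene ends held 9 (4.43%) and 60 (5.12%), which also differed by less than counting error (−3.25 to 3.20). The remaining class held 84 (41.4%) and 695 (59.3%), a difference of 17.9 points (10.5 to 25.04), and was 8.27 times as large in shRRN3 (6.59 to 10.5). In the reduced shRRN3 list this class held 43.9%, and its difference to shLacZ was 2.57 points, within counting error (−6.30 to 11.3), while the canonical start class still held 9.26 points less than in shLacZ (interval of the reduced minus shLacZ difference −17.6 to −0.920). In shRRN3 the median score of early peaks at no start and no end was 65.4, against 81.9 in the canonical start class.

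**Figure D4:**
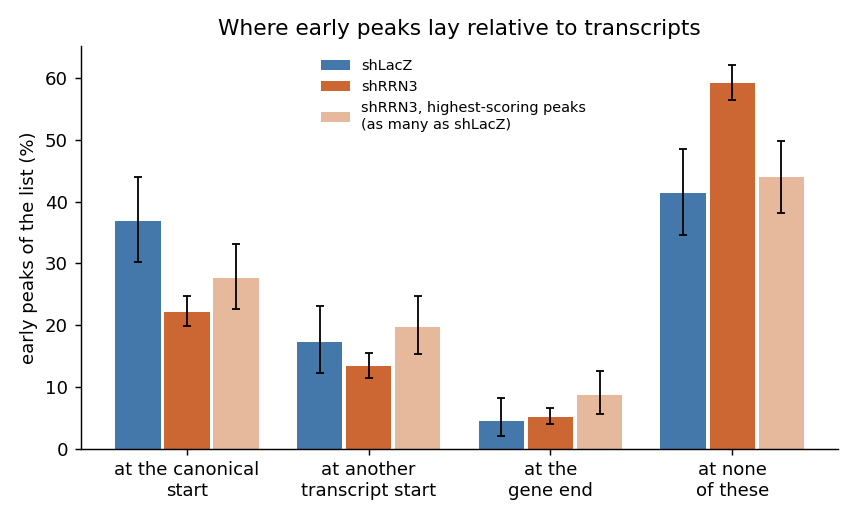
Percentage of early peaks of each list at the canonical start, at another transcript start, at the gene end and at none of these, for shLacZ, shRRN3 and the 3916 highest-scoring shRRN3 peaks, with exact 95% intervals over peaks. The last class stands at 41.4%, 59.3% and 43.9%, so the full shRRN3 list differs from both others.

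The position of early peaks among exons and introns was compared as well. First introns held 46.8% of early peaks in shLacZ (39.8% to 53.9%) and 51.9% in shRRN3 (49.0% to 54.8%), a difference of 5.08 points within counting error (−2.35 to 12.4). Later introns held 15.3% and 18.5%, and later exons 5.91% and 7.59%. Sequence of high GC content, 60% or more around the midpoint, was found at 37.4% of shLacZ and 21.2% of shRRN3 early peaks, a difference of −16.3 points (−23.5 to −9.46). Within shRRN3, TGACTCA was more frequent in peaks at no start and no end when the gene had no TSS peak, at 20.9% against 11.7%, a difference of 9.19 points (3.41 to 15.5). In shLacZ these shares were 14.0% and 12.2%, from 6 and 5 peaks, and the difference was within counting error (−13.5 to 16.7).

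How many early peaks were found in the other list depended on the overlap rule and on list length. Of the 203, 150 were overlapped by at least 1 bp of a shRRN3 peak, or 73.9% (67.3% to 79.8%), which was 23.3 points more than among peaks deeper in genes (16.3 to 29.6) and 9.58 points less than among TSS peaks (interval of the early minus TSS difference −16.3 to −3.64). Of the 1172 shRRN3 early peaks, 141 had a shLacZ peak over them, or 12.03% (10.2% to 14.0%), against 11.2% of deeper peaks and 24.5% of TSS peaks. Over all peaks the shares were 66.2% in shLacZ and 16.9% in shRRN3. With 50% of both peaks shared, the early shares were 37.9% and 7.08%, and with the reduced shRRN3 list 51.7% and 30.4%. The difference to deeper peaks was within counting error in shRRN3 (−1.14 to 2.99). By class, 82.7% of shLacZ early peaks at the canonical start were overlapped and 58.3% of those at no start and no end. In 128 pairs both peaks were early peaks, and the shRRN3 peak was the wider in 108 of them. The pairs held 116 distinct shRRN3 peaks, of which 96 were wider than each shLacZ peak they paired with. The pairs had median widths of 407.5 and 721 bp and a median shift of the midpoint of 133 bp. The greater width was not particular to these pairs. Median widths in shLacZ and shRRN3 were 477 and 612 bp for all TSS peaks and 236 and 352 bp for all deeper peaks. At the level of genes, 137 had early peaks under both hairpins, 42 had them under shLacZ only and 822 under shRRN3 only, beside the 0.919% and 4.92% of genes with early peaks in the lists of unequal length. Of those 822 genes, 215 had a TSS peak in shLacZ and 473 in shRRN3. Of all 19475 qualifying genes, 1479 had a TSS peak in shLacZ and 4687 in shRRN3.

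Wide peaks moved some genes between groups. No shLacZ early peak spanned a protein-coding TSS (0%, up to 1.80%) and 7 shRRN3 early peaks did, or 0.597%. The difference was within counting error (−1.29 to 1.23 points). The widest of the 7 was 5267 bp over ID1, an inhibitor of basic helix-loop-helix transcription factors, with the highest score of either list, 3100 (chr20:31603762-31609028). Its midpoint lay 1112 bp past the TSS, so ID1 counted as a gene with an early peak and no TSS peak in shRRN3, while shLacZ had a TSS peak there and no early peak. A 3702 bp peak over EIF1, a translation initiation factor that guards start codon choice, also spanned the TSS of its gene. A 4578 bp peak in TNFRSF12A, the receptor for the cytokine TWEAK, did not reach the TSS of that gene but spanned one of another protein-coding gene.

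Positions of peaks are given on hg38. Of the named genes, those at the top of the shLacZ list shared their peaks with shRRN3. FTH1, the heavy chain of the iron store ferritin, had the highest-scoring early peak in shLacZ, at 641.9 (chr11:61962120-61963849), and it was overlapped by a shRRN3 early peak of score 1478. These peaks lay past the end of the canonical transcript but inside the gene span, with 1730 and 3049 bp of width. EZR, which ties the plasma membrane to actin, had a peak of score 422.8 in shLacZ (chr6:158817734-158818391) and 213.5 in shRRN3, and it lay 83 bp from the start of the antisense noncoding gene EZR-AS1. ZFP36L1, which binds AU-rich elements and promotes mRNA decay, had peaks of 275.2 (chr14:68792472-68793229) and 267.1 at its canonical start. The peak of ATF4, a transcription factor of the integrated stress response, scored 228.0 in shLacZ and lay 289 bp from its canonical start. The overlapping shRRN3 peak, of score 368.3, was a TSS peak and not an early peak.

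RCC1, the nucleotide exchange factor of the GTPase Ran, had most early peaks in shLacZ. Its 5 peaks scored 382.3, 102.5, 98.0, 61.1 and 58.0, and the last 2 lay 17 and 192 bp from the starts of the snoRNA genes SNORA73B and SNORA73A, while shRRN3 had wider peaks of scores 1214 (chr1:28508554-28511707) and 878.7 in their place. F3 had 3 in shLacZ, scoring 75.8 to 136.8, each overlapped in shRRN3. The unnamed gene ENSG00000271793 had 4 early peaks in shLacZ, with scores of 57.7 to 113.2, that were all overlapped by a shRRN3 peak of 600.6. BCL2L1, an inhibitor of apoptosis, had a wide but weak shLacZ peak of 1454 bp and score 89.1, 80 bp from the start of the noncoding gene ABALON. The overlapping shRRN3 peak scored 317.0.

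Early peaks of shLacZ with no shRRN3 counterpart were weak. The highest-scoring was that of CCN1, a secreted matricellular protein, at 108.5 (chr1:85584327-85584692) and 559 bp past the canonical end of the gene. Then came FOXP1, a forkhead transcription factor, at 93.7, the zinc finger genes ZNF681 at 87.8 and ZNF431 at 81.7, and C14orf93 at 81.3. FOXP1 and C14orf93 peaks lay 73 and 23 bp from another transcript start of the gene, and the other 3 did not lie at a start. Over all 53 unmatched shLacZ early peaks the scores ran from 50.6 to 108.5 with a median of 56.9.

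Early peaks of shRRN3 with no shLacZ counterpart reached higher scores, but there were 1031 of them against 53 in shLacZ. Most were weak as well, with a median score of 68.4 against 129.0 for overlapped shRRN3 early peaks. The unmatched ones were led by PNRC2, which takes part in mRNA decapping, at 442.2 (chr1:23958914-23960584) and 79 bp from its canonical start. JUN, an AP-1 subunit, followed at 431.9 (chr1:58779331-58780472), past the canonical end of the gene, then VIM at 418.6 (chr10:17231932-17233071) in a later intron, S100A2, a calcium-binding protein, at 374.8 near its canonical start and SRSF3, a splicing factor, at 290.5 in its first intron. JUN and SRSF3 also had a TSS peak in shLacZ, whereas PNRC2, VIM and S100A2 had none. IER2, an immediate early gene, had no TSS peak in either list, and its early peak of 197.9 in shLacZ and 426.1 in shRRN3 (chr19:13152860-13153567) lay 2802 bp past the start in the latter. PLK2, a stress-responsive kinase, had 5 early peaks in shRRN3 with scores of 79.9 to 153.7, of which 2 were overlapped in shLacZ. ANXA1, the phospholipid-binding annexin A1, also had 5, all in its first intron and at no transcript start, with scores of 52.4 to 94.6 and no shLacZ counterpart. WTAP, a subunit of the m6A RNA methyltransferase, had 4, led by a peak of 345.9 at 300 bp from its canonical start and 147 bp from a transcript start of SOD2.

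Gene groups were examined to see which kinds of genes held early peaks, each read against the 0.919% and 4.92% of all qualifying genes. Cytosolic ribosomal protein genes stood highest in shRRN3. Of 78, 34 had an early peak there, or 43.6% (32.4% to 55.3%), and 6 in shLacZ, or 7.69% (2.88% to 16.0%), all of which were among the 34. In the reduced shRRN3 list the number was 12, or 15.4% (8.21% to 25.3%). Of the 64 with a TSS peak in shRRN3, 48.4% (35.8% to 61.3%) had an early peak, against 11.6% of all genes with a TSS peak. In shLacZ it was 8.0% of 50 (2.22% to 19.2%), against 3.65%. The 50 shRRN3 peaks assigned to them by name divided into 25 at no start and no gene end, 14 at the gene end, 7 at another transcript start and 4 at the canonical start. These genes are short, with a median span of 5440 bp, and the window ended at 5 kb. The highest-scoring were RPLP0 (602.4), RPS20 (266.5), RPL21 (226.4) and RPS23 (177.5), and of these RPLP0 and RPL21 were overlapped in shLacZ, at 226.6 and 50.9.

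Splicing factors and hnRNPs, which bind pre-mRNA, had early peaks at 17 of 49 genes in shRRN3, or 34.7% (21.7% to 49.6%), and at 4 in shLacZ, or 8.16% (2.27% to 19.6%). Examples were SRSF3, HNRNPA1 (148.8), HNRNPU (127.8) and HNRNPF (104.0), and SRSF1 shared a peak of 168.4 with an overlapping gene. Immediate early and stress response genes had them at 14 of 41, or 34.1% (20.1% to 50.6%), and at 5, or 12.2% (4.08% to 26.2%). That group was led by ID1, JUN, IER2 and ZFP36L1 in shRRN3 and by ZFP36L1, ATF4, IER2 and ID2 in shLacZ, and its median span was 5150 bp. Genes of the actin cytoskeleton and adhesion had early peaks at 11 of 39, or 28.2% (15.0% to 44.9%), and at 4, or 10.3% (2.87% to 24.2%). EZR, MYL12A (a regulatory myosin light chain, 197.3), VCL (vinculin, 173.4) and FLNA (filamin A, 128.4) led in shRRN3. In the reduced shRRN3 list these groups had 6, 8 and 6 such genes, or 12.2%, 19.5% and 15.4%, against 1.35% of all qualifying genes. Among their genes with a TSS peak in shRRN3, the shares with an early peak were 41.7% (25.5% to 59.2%), 40.0% (21.1% to 61.3%) and 33.3% (13.3% to 59.0%). The share of all genes with a TSS peak there was 11.6%.

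The other groups held fewer in shRRN3. Translation factors had early peaks at 5 of 38 genes in shRRN3, or 13.2% (4.41% to 28.1%), and at 4 in shLacZ, or 10.5% (2.94% to 24.8%), led by EEF1A1, EIF1 and the helicase EIF4A2. Heat shock chaperones had them at 4 of 31, or 12.9% (3.63% to 29.8%), namely HSPA8, HSP90AB1, TCP1 and HSPA9, and at HSPA8 alone in shLacZ. Factors of Pol II pausing and elongation had 3 of 40 in shRRN3, or 7.5% (1.57% to 20.4%), and 0 in shLacZ, which allows up to 8.81%. The 3 were HEXIM1, an inhibitor of P-TEFb, with a peak of 223.5 at its gene end, the kinase CDK12 (109.8) and CCNT2, a cyclin of P-TEFb (74.4). Core autophagy genes had 3 of 46 in shRRN3, or 6.52% (1.37% to 17.9%), read against 4.92% of all genes, and 0 in shLacZ, which allows up to 7.71%. VMP1 scored 71.1 and ATG12 57.8 there, and MAP1LC3B shared a peak of 138.3 with the overlapping gene FBXO31.

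**Figure D5:**
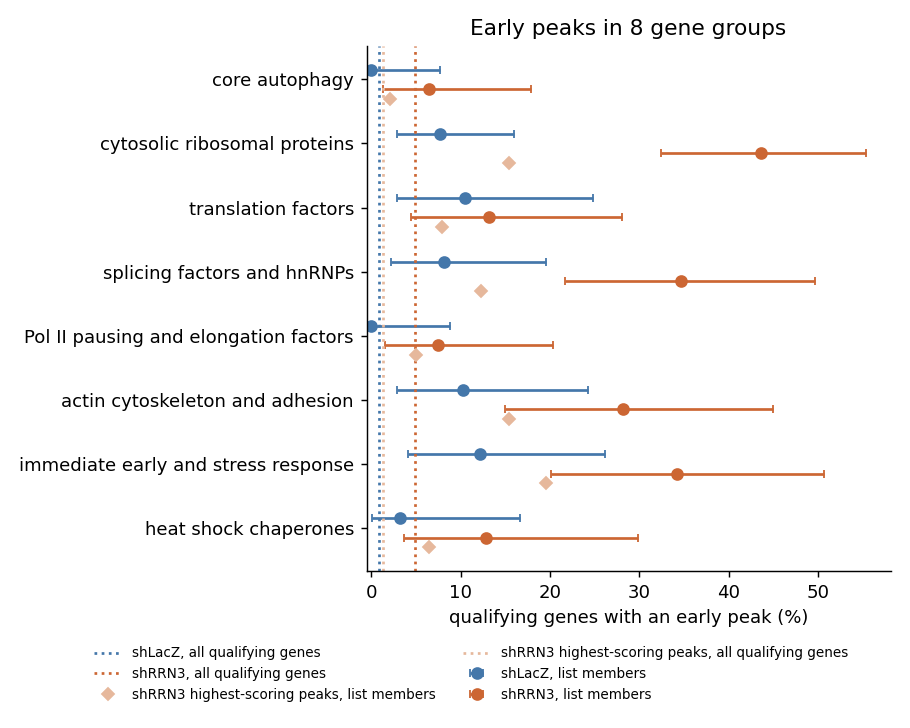
Percentage of qualifying genes with an early peak in 8 gene groups, for shLacZ and shRRN3 with exact 95% intervals and for the 3916 highest-scoring shRRN3 peaks (diamonds). Dotted lines mark the share among all qualifying genes (0.919%, 4.92% and 1.35%), and ribosomal protein genes in shRRN3 (43.6%) lie farthest to the right.

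Of the genes that the study followed, 8 had no early peak in either list. These were COMMD3, BMI1, RRN3 itself and the autophagy genes OPTN, BECN1, RPTOR, ATG5 and ATG16L1, each with 2710 to 4000 bp of sequence in which a midpoint could have qualified. Only 0.919% of all qualifying genes had an early peak in shLacZ and 4.92% in shRRN3. Absence at 8 genes is therefore no result about them. COMMD3 had a TSS peak in both lists, BMI1 in shLacZ alone, OPTN, BECN1, RPTOR and ATG5 in shRRN3 alone, and RRN3 and ATG16L1 in neither. PABPC1, a poly(A)-binding translation factor that the study also followed, was added after its values were seen. It had an early peak of score 59.3 in its first intron in shLacZ, 2178 bp past the TSS, with no overlapping shRRN3 peak.

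Peaks close to the limits of the window were compared in score. Within 100 bp inside the 1 kb limit, 15 shLacZ and 70 shRRN3 early peaks had median scores of 66.1 and 79.4, and within 100 bp outside it 26 and 116 peaks had 72.3 and 76.2. At the 5 kb limit, 1 and 17 early peaks lay within 100 bp inside, with median scores of 148.0 and 91.9, and 1 and 26 peaks lay as close outside, with 76.7 and 64.9.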

How the data were processed

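Pol II ChIP-seq of SK-OV-3 cells gave 1 peak list per hairpin, which the authors made from their reads and deposited with a score per peak. The peak names carry MACS. Its version, the aligner, the threshold and the use of the inputs are not given in the sources used here, and hg38 comes from the submitters' processing notes. The score, 50.03 or 50 at the lowest and 3100 at the highest, was taken as 10 times the −log10 of a p-value, which is an assumption. It depends on depth, which is unknown.

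Peaks on chromosomes 1 to 22 and X were placed on GENCODE release 44 by midpoint, and 19475 of 19970 protein-coding genes had sequence that could qualify (71.7 Mb). Shares have exact Clopper-Pearson intervals, differences Newcombe intervals, rates exact Poisson intervals and ratios exact conditional intervals, all at 95%. The rule for early peaks and the overlap rule were tested on simulated peaks, and overlaps were checked against bedtools 2.31.1. The interval methods were not tested on simulated data. Intervals came from scipy 1.17.1, tables from pandas 2.3.3 on numpy 2.4.6 and figures from matplotlib 3.10.9, under Python 3.11.15. No test between hairpins was possible with 1 library each.

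The members, gene groups and named genes were chosen with earlier results of these data known, and the classes and the canonical start alternative after the values were seen. Genes were named from the highest-scoring, widest and unmatched early peaks of each list, those with 3 or more early peaks, the overlapping pairs of highest score percentile, the genes the study followed, and up to 4 members per gene group. Other genes were named as examples after their values were seen. Alternatives changed the score minimum, list length, window, starts, dense regions, TSS peak definition and overlap rule. Some genes that this rule names are not reported here.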

Additional observations from a re-analysis of the deposited data

How the results depend on the processing

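Of 73 alternative values for 9 results, 39 stayed within the interval or within 1.5 times of the reported value, 34 moved and 0 reversed. The tally is no measure of robustness. Counts and overlap shares could not be called reversed. Some alternatives also could not change a value, as when reducing shRRN3 left the shLacZ count at 203. No paired analysis was possible because a hairpin was represented by a single library. The values that moved follow, and the cause was not tested beyond what each alternative removes by construction. With scores of at least 65.6, the shLacZ median, there were 92 and 685 early peaks, the gene differences with minus without a TSS peak were 1.48 and 5.88 points, and 81.5% of shLacZ early peaks were overlapped. With shRRN3 reduced to 3916 peaks there were 289 early peaks in it, and its gene difference was 4.02 points. The difference in the share at genes with a TSS peak was 2.99 points, and overlap was 51.7% and 30.4%. In the full lists, 48.8% of shLacZ and 29.4% of shRRN3 early peaks lay within 250 bp of any annotated transcript start. That difference was −19.3 points (−26.6 to −12.0). With the reduced list it was −7.59 points, within counting error (−16.4 to 1.31). With a window of 2 to 5 kb there were 100 and 642 early peaks, the difference in early share was 1.93 points, the gene differences were 1.59 and 5.07 points, and 9.35% of shRRN3 early peaks were overlapped. With no protein-coding transcript start within 1 kb these values were 80 and 593, 2.10, 1.85 and 5.75 points, and 7.08%, and the difference near a transcript start was −5.88 points. Without the 46 bins that held 10 or more shLacZ peaks, the shLacZ gene difference was 2.10 points and the difference in the share at genes with a TSS peak was 31.7 points. When any peak over the TSS window counted as a TSS peak, the gene differences were 4.44 and 11.1 points. Overlap was 37.9% and 7.08% when 50% of both peaks had to be shared, and 79.8% and 17.5% for midpoints within 1 kb. With canonical starts, an alternative chosen after seeing the data, 8.41% of shRRN3 early peaks were overlapped and the difference near a transcript start was −9.03 points.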

Other observations

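Chromosome 7 held 0 of the 203 shLacZ early peaks and 15 of the 1172 shRRN3 early peaks. The share of all peaks on that chromosome was not compared, so these counts are no result about early peaks. The word TATAAA, the core of the TATA box, was found on either strand in 26.2% of shLacZ and 21.6% of shRRN3 early peaks at no start and no gene end, against 20.6% of the tiled windows. The differences of 5.63 points (−2.58 to 15.9) and 1.02 points (−1.88 to 4.24) were within counting error.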
